A study of Homo sapiens with 4 samples.

Results

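MALAT1 and NEAT1, the long non-coding RNAs of nuclear speckles and paraspeckles, are described here together with 5 genes for proteins that act in paraspeckles or bind NEAT1: SFPQ, NONO, PSPC1, RBM14 and TARDBP. These 7 genes were taken by symbol from the 58735 genes counted, and all 7 were among the 16262 genes that reached 1 CPM (counts relative to library size, on the usual scale) in at least 1 library. The set was chosen by the measured levels in these same libraries, above all the low MALAT1 and NEAT1 counts of some mutants, so the differences below are descriptions. The cells were HEK293T, derived from human embryonic kidney, with the PBRM1 gene disrupted by CRISPR. Every group carried that disruption and received, for 48 h, a plasmid for GFP-tagged PBRM1. The 4 groups differed in the construct: the unaltered protein (WT) or 1 of the BAH domain mutants P1048R, T1202K and C1233W. PBRM1 belongs to the chromatin remodeller PBAF, and BAH domains are protein modules found in many chromatin factors. Each construct had 1 library, so no difference has a replicate check and no p-value is given. The sources used here do not say whether the PBRM1-disrupted line is 1 clone, and cells without a plasmid were not analysed here.

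Paraspeckles are nuclear bodies that form around NEAT1. The long form of this RNA is their scaffold, and the paired RNA-binding proteins SFPQ and NONO, of the DBHS family, coat it as it is made. PSPC1 is the remaining DBHS protein, RBM14 helps join single particles into whole paraspeckles, and TARDBP encodes TDP-43, an RNA-binding protein known to bind NEAT1. MALAT1 is made from the gene next to NEAT1 and collects in nuclear speckles, bodies rich in splicing factors. MALAT1 and long NEAT1 share an unusual ending: RNase P cuts a tRNA-like piece from the transcript, and the new end, which has a genome-encoded run of A in place of a poly(A) tail, folds with U-rich stretches into a triple helix.

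The endings are shown because they are the sequence feature that sets these RNAs apart from ordinary transcripts. Each is the 100 bases before the tRNA-like piece, on the plus strand of GRCh38. Both were taken from transcripts of GENCODE release 29 and written 5′ to 3′ as DNA. For NEAT1 they are the last 100 bases of the annotated transcript, whereas the annotated MALAT1 transcript runs on past them. MALAT1 covers chr11:65506017-65506116 and NEAT1 covers chr11:65445441-65445540. Capitals mark the 3 words of at least 8 bases that both share.
MALAT1 3′ end: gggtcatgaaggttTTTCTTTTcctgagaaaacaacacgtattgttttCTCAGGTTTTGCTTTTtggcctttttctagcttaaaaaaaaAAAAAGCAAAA
NEAT1 3′ end: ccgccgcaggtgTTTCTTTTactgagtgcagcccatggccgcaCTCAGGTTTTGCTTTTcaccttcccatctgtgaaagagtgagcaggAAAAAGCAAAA
The 16-base word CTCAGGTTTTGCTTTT was in the last 100 bases of 0 of 203675 other annotated transcripts. The 8-base word TTTCTTTT was in 2549 of them (1.25%), and the closing 11 bases AAAAAGCAAAA were in 93 (0.0457%). No other transcript held all 3 words in its last 100 bases. These counts are for annotated ends, which the MALAT1 stretch is not. Directly after the MALAT1 stretch lies the small RNA annotated as RF01684, the tRNA-like piece, at chr11:65506117-65506173.
RF01684 at MALAT1: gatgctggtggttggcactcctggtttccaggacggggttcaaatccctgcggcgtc
A copy of the same annotated family follows the NEAT1 end at chr11:65445541-65445598. Both small RNA rows had 0 reads in every library. The MALAT1 copy lies inside the counted MALAT1 exon, so reads there could have been assigned to MALAT1 or to no gene, and no limit on either small RNA is drawn from the 0.

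The libraries held 10246250 to 11205322 counted reads. PBRM1 stood at 22768 CPM in WT, 8805 in P1048R, 15262 in T1202K and 60509 in C1233W. These counts mix transcripts of the plasmid with any from the edited gene. All 8 markers of a HEK293-like state reached 1 CPM in every library, and none of 10 markers of blood, liver, muscle and endothelium did (highest 1.74 CPM). The 13 mitochondrially encoded mRNAs summed to 84668 CPM in WT, 44203 in P1048R, 45649.6 in T1202K and 53636 in C1233W. WT therefore stood above every mutant in mitochondrial mRNA, as it did in MALAT1. The part of PBRM1 dose or of mitochondrial RNA in the results that follow was not tested.

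MALAT1 was lower in all 3 mutants than in WT, and lowest in T1202K. The gene (ENSG00000251562) lies at chr11:65497688-65506516 on the plus strand, with 8829 bases of exon over 17 annotated transcripts. It had 2001 reads in WT, 854 in P1048R, 672 in T1202K and 1334 in C1233W. With library sizes scaled by TMM, a trimmed mean of log ratios, these were 214 CPM in WT (205 to 224), 71.5 for P1048R (66.8 to 76.5), 59.3 for T1202K (54.9 to 64.0) and 129 for C1233W (122 to 136). The ranges are 95% intervals for counting error only, and no pair of them overlapped. The order from high to low was thus WT, C1233W, P1048R, T1202K. In bulk RNA, fewer cells holding a transcript and less of it per cell cannot be told apart.

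Relative to WT, MALAT1 was 2.99-fold lower in P1048R, a log2 ratio of −1.58 (−1.70 to −1.47). In T1202K it was 3.61-fold lower, at −1.85 (−1.98 to −1.72). In C1233W it was 1.66-fold lower, at −0.73 (−0.83 to −0.63). All 3 ratios share the WT library. The mutants could also be set against each other: C1233W held more MALAT1 than T1202K by 1.12 on the log2 scale (0.99 to 1.26) and more than P1048R by 0.85 (0.73 to 0.98). T1202K lay below P1048R by a smaller step, −0.27 (−0.42 to −0.12). Of the 16262 genes, 150 had a lower ratio than MALAT1 in P1048R, 108 in T1202K and 778 in C1233W.

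NEAT1 was lower in P1048R and T1202K but not in C1233W. The gene (ENSG00000245532) lies at chr11:65422774-65445540 on the plus strand, 52147 bases upstream of MALAT1, with 22767 bases of exon over 8 annotated transcripts. Counts per gene do not separate its short and long forms. It had 2124 reads in WT, 1475 in P1048R, 1025 in T1202K and 2544 in C1233W. The levels were 227 CPM for WT (218 to 237), 124 for P1048R (117 to 130), 90.5 for T1202K (85.1 to 96.2) and 246 for C1233W (237 to 256). WT and C1233W lay close together at the top, with intervals that overlap at their edges, and T1202K lay at the bottom.

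Against WT, the log2 ratio of NEAT1 was −0.88 in P1048R (−0.98 to −0.78) and −1.33 in T1202K (−1.44 to −1.22). In C1233W it was 0.11 (0.03 to 0.20), a level 8.28% higher. T1202K lay below P1048R by −0.45 (−0.57 to −0.33). C1233W lay above P1048R by 0.99 (0.90 to 1.09) and above T1202K by 1.44 (1.34 to 1.55). NEAT1 thus had the same lowest library as MALAT1, but C1233W took a different place in the order.

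**Figure D1:**
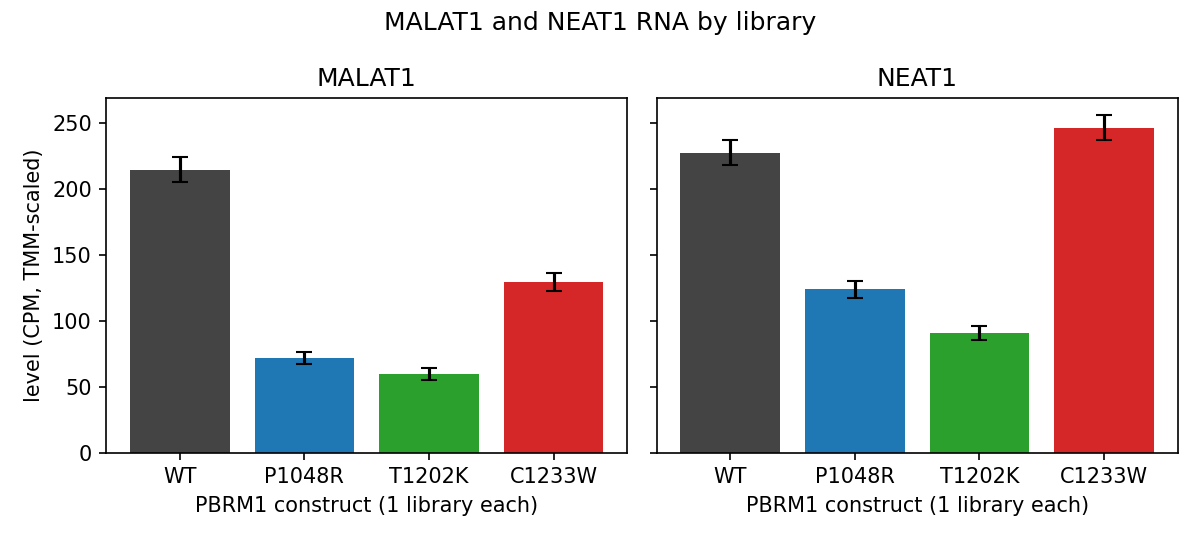
Levels of MALAT1 and NEAT1 (CPM on TMM-scaled library sizes, linear axis from 0) in the 4 libraries, 1 bar per library, with 95% Poisson intervals for counting error as error bars. MALAT1 is highest in WT at 214 CPM, whereas NEAT1 is highest in C1233W at 246 CPM; both are lowest in T1202K.

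The balance between the RNAs can be read within each library, without any scaling between libraries. MALAT1 made up 48.5% of the reads on both RNAs for WT (Clopper-Pearson 95% interval 46.97 to 50.05), 36.7% for P1048R (34.7 to 38.7), 39.6% for T1202K (37.3 to 42.0) and 34.4% for C1233W (32.9 to 35.9). WT stood apart from every mutant, with nearly equal reads on the RNAs. NEAT1 had 1.06 reads for each MALAT1 read in WT, against 1.73 in P1048R, 1.53 in T1202K and 1.91 in C1233W. C1233W, where NEAT1 was near its WT level, had the lowest MALAT1 share, and its interval overlapped that of P1048R alone.

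Set against the protein genes, the sum of the RNAs was lower in 2 of the 3 mutants. Together they took 14.1% of the reads on the 7 genes for WT (13.7 to 14.5), 8.39% for P1048R (8.07 to 8.73), 6.39% for T1202K (6.10 to 6.69) and 14.8% for C1233W (14.4 to 15.3). The share was thus lower in P1048R and T1202K, and the intervals of WT and C1233W overlapped. In C1233W this sum joins opposite moves of the RNAs. MALAT1 had 2001 reads in WT and 1334 in C1233W, and NEAT1 had 2124 and 2544. The protein genes had 25104 and 22251. The summed level of the 5 protein genes was 2686 CPM in WT and between 2129 and 2197 CPM in the mutants.

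**Figure D2:**
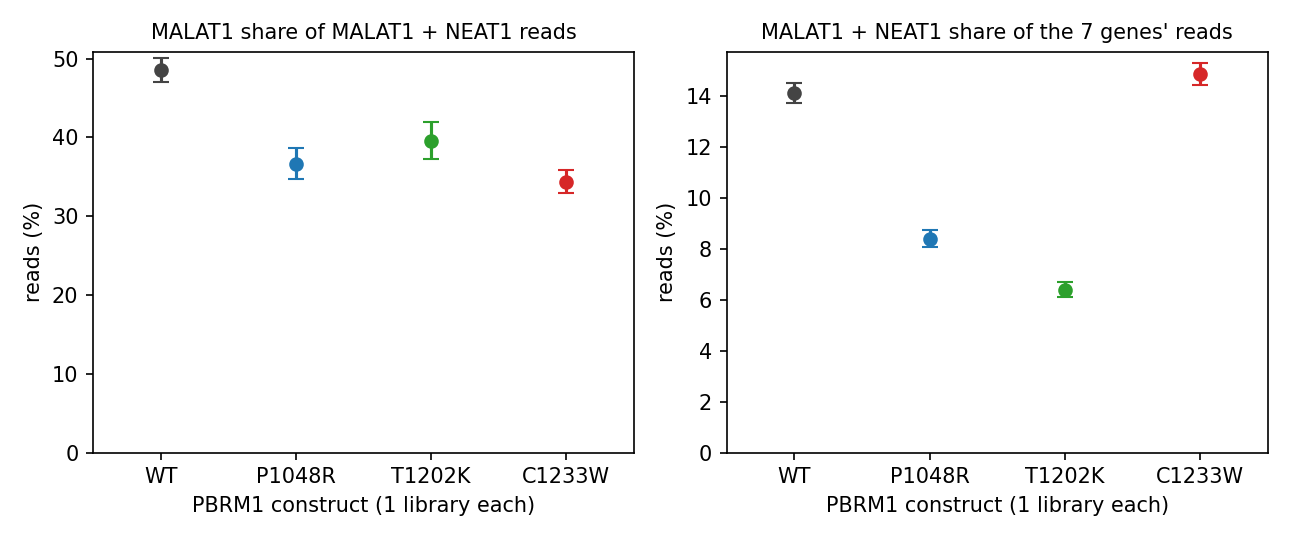
Shares of reads within each library (percent, with Clopper-Pearson 95% intervals): MALAT1 among the reads on MALAT1 and NEAT1 (left), and both RNAs among the reads on all 7 genes (right). The left share is highest in WT at 48.5%; the right share is 8.39% in P1048R and 6.39% in T1202K against 14.1% in WT and 14.8% in C1233W.

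The core proteins SFPQ and NONO were the most abundant of the 7 genes per length of exon, with means over the libraries of 130.5 and 175 CPM per kb. TARDBP followed at 37.9, then PSPC1 at 21.2, RBM14 at 16.1, MALAT1 at 13.4 and NEAT1 at 7.55. The exon length of NEAT1 includes the long form, so its value depends on which form the reads came from. The sources used here do not state if RNA was selected by its poly(A) tail or depleted of ribosomal RNA. The levels of MALAT1 and NEAT1 are therefore those of the molecules the libraries could capture, with or without a tail.

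SFPQ (ENSG00000116560, chr1:35176378-35193148, minus strand) was highest in WT, at 1139 CPM (1117 to 1160). It stood at 952 CPM for P1048R (935 to 970), 928 for T1202K (911 to 946) and 857 for C1233W (839 to 875). The log2 ratios to WT were −0.26 (−0.30 to −0.22), −0.29 (−0.33 to −0.26) and −0.41 (−0.45 to −0.37) in that order. P1048R and T1202K were not told apart by counting error, and C1233W, where NEAT1 was highest, had the lowest SFPQ.

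NONO, the partner of SFPQ (ENSG00000147140, chrX:71283192-71301168, plus strand), was also highest in WT, but its lowest library was P1048R. Its levels were 1074 CPM in WT (1053 to 1095), 798 for P1048R (782 to 814), 882 for T1202K (865 to 899) and 953 for C1233W (935 to 972). The ratios were −0.43 (−0.47 to −0.39), −0.28 (−0.32 to −0.24) and −0.17 (−0.21 to −0.13). Among the mutants C1233W thus had the lowest SFPQ and the highest NONO. Within libraries, SFPQ took 51.5% of their joint reads for WT (50.8 to 52.1), 54.4% for P1048R (53.7 to 55.1), 51.3% for T1202K (50.6 to 52.0) and 47.3% for C1233W (46.6 to 48.0).

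PSPC1 (ENSG00000121390, chr13:19674752-19783019, minus strand) varied least of the 7 genes, with 1.13-fold between its highest and lowest library. It stood at 106 CPM in WT, 94.0 in P1048R, 105 in T1202K and 104 in C1233W. Its ratio to WT was −0.18 in P1048R (−0.30 to −0.05), and the intervals in T1202K (−0.14 to 0.10) and C1233W (−0.16 to 0.09) held 0. On total-count scaling the ratios turned to 0.05, 0.15 and 0.09, so no direction is given for PSPC1.

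RBM14, the assembly factor (ENSG00000239306, chr11:66616582-66627347, plus strand), stood at 66.2 CPM for WT (61.1 to 71.7), 55.2 for P1048R (51.1 to 59.6), 74.3 for T1202K (69.3 to 79.5) and 57.7 for C1233W (53.1 to 62.5). T1202K, the library with the least MALAT1 and NEAT1, had the most RBM14. The ratio to WT there was 0.16 (0.01 to 0.32), but it was −0.07 with the trend on GC content and length removed. Against P1048R it was 0.43 (0.28 to 0.58). A readthrough gene, RBM14-RBM4, shares RBM14 exons and had 11 to 19 reads, so RBM14 counts are uncertain to the extent that shared reads were not assigned.

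TARDBP (ENSG00000120948, chr1:11012344-11026420, plus strand) showed the widest spread of the protein genes, 1.66-fold. It had 2810 reads in WT, 2742 in P1048R, 2350 in T1202K and 1875 in C1233W. The levels were 301 CPM for WT (290 to 312), 229.7 for P1048R (221 to 238), 208 for T1202K (199 to 216) and 181 for C1233W (173 to 190). None of the 4 intervals overlapped. Ratios to WT were −0.39 (−0.46 to −0.31), −0.53 (−0.61 to −0.46) and −0.73 (−0.81 to −0.64). Of the 7 genes, TARDBP and MALAT1 were the lowest in C1233W, both at −0.73. SFPQ and TARDBP shared the order WT, P1048R, T1202K, C1233W, which was that of neither RNA. A total of 6 pseudogene rows named after SFPQ, NONO, PSPC1 or TARDBP had at most 23 reads in a library.

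**Figure D3:**
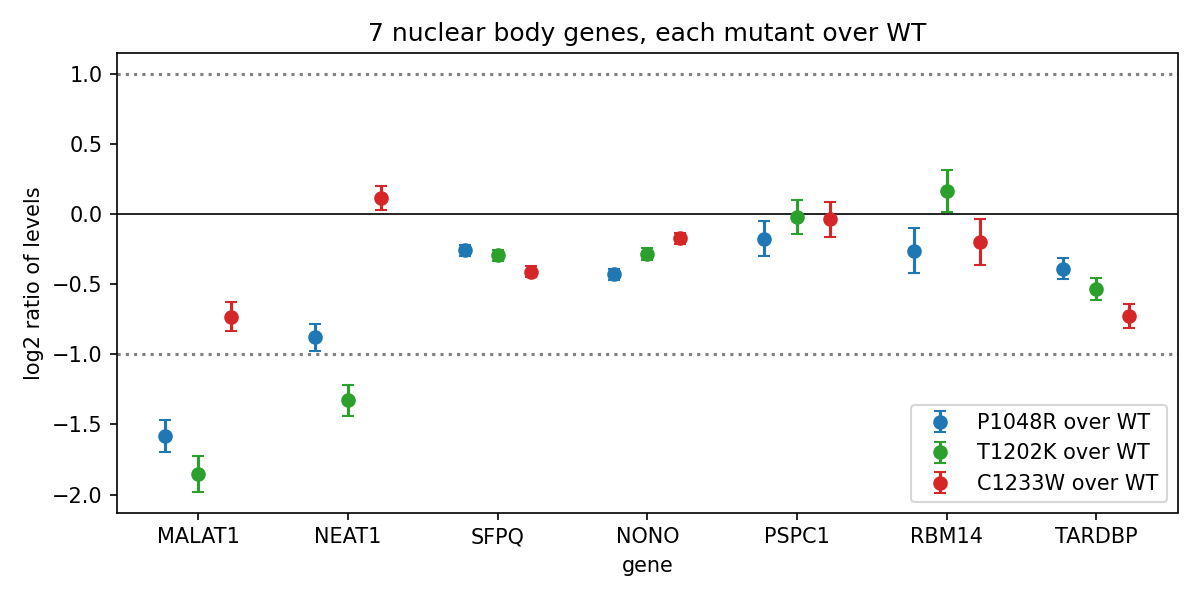
Log2 ratio of each mutant to WT for the 7 genes, 1 point per comparison, with 95% counting intervals; dotted lines mark 2-fold. MALAT1 and NEAT1 lie far below the protein genes in P1048R and T1202K, whereas in C1233W MALAT1 and TARDBP are lowest, both at −0.73.

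A difference was counted when it was at least 2-fold and its counting interval excluded 0. By that rule 1 of the 7 genes was lower in P1048R (MALAT1), beside 3.02% of all genes, and 2 were lower in T1202K (MALAT1 and NEAT1), beside 2.21%. In C1233W none was, beside 1.21%. Between mutants, C1233W held 2 of the 7 genes higher than T1202K, both RNAs, beside 3.05% of all genes. At 1.5-fold it held the same RNAs higher than P1048R, beside 7.63%. These shares are printed as background only, since the genes were chosen with the low RNA levels known. At 1.5-fold, 2 genes were lower in each mutant: MALAT1 and NEAT1 in P1048R (8.99% of all genes) and in T1202K (5.29%), and MALAT1 and TARDBP in C1233W (4.94%). Small differences beyond counting error were common. In P1048R the interval lay below 0 for 7 of the 7 genes and for 27.1% of all genes. In T1202K it lay below 0 for 5 (22.3% of all genes) and above 0 for 1, RBM14 (22.2%). In C1233W it lay below 0 for 5 (24.8%) and above 0 for 1, NEAT1 (19.7%). On total-count scaling the numbers below 0 were 4, 5 and 4, and in P1048R the intervals of SFPQ, PSPC1 and RBM14 held 0. The median ratio of the 5 protein genes was −0.26 in P1048R, −0.28 in T1202K and −0.20 in C1233W, where the medians of all genes were −0.04, −0.01 and −0.01. On total-count scaling those of the protein genes were −0.04, −0.11 and −0.07.

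MALAT1 and NEAT1 are both annotated as lincRNA, and 605 genes of that type were measured. The lincRNA medians were −0.06 in P1048R, −0.15 in T1202K and 0.10 in C1233W, and 6.45%, 5.62% and 4.79% of these genes were lower by the 2-fold rule. Lower ratios than that of MALAT1 were held by 12, 14 and 79 of the 605 genes in the same order. For NEAT1 these numbers were 82, 34 and 306, so in C1233W NEAT1 lay near the middle of its class.

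The 23 lincRNA genes with a mean of at least 20 CPM include MALAT1 and NEAT1. Among them MALAT1 had the lowest ratio in P1048R and T1202K and the next to lowest in C1233W. NEAT1 ranked 3 from the lowest in P1048R, 2 in T1202K and 16 in C1233W. In T1202K 18 of the 23 genes lay below WT at any size, with a median of −0.27, where 51.6% of all 8422 genes at this level did. Some of the 18 lay close under 0, such as SNHG8 at −0.02. Total-count scaling, which raises the T1202K ratios, was not applied to these numbers. By the 2-fold rule 3 of the 23 were lower in T1202K, namely MALAT1, NEAT1 and AC005909.1, and 2 were higher. Of all genes 2.21% were lower and 2.95% higher. In P1048R 13 lay below WT (median −0.17; 54.8% of all genes at this level), and in C1233W 11 did (median 0.04; 60.8%). The order T1202K below P1048R below WT was held by 11 of the 23 genes, MALAT1 and NEAT1 included.

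**Figure D4:**
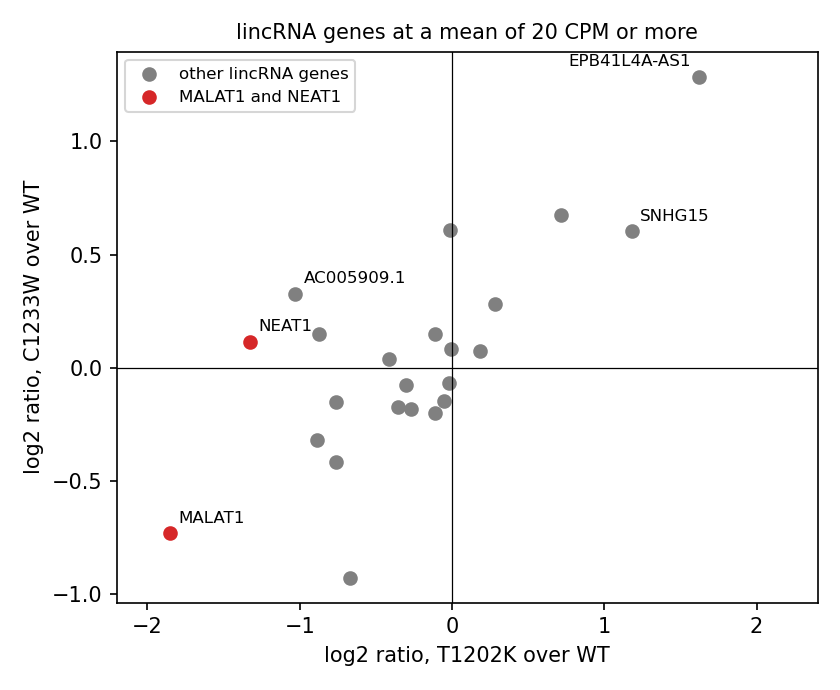
Log2 ratio to WT in T1202K (horizontal) and C1233W (vertical) for the 23 lincRNA genes at a mean of 20 CPM or more; both axes share the WT library. MALAT1 lies at −1.85 and −0.73, and NEAT1 at −1.33 and 0.11, near AC005909.1.

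Other nuclear or abundant long non-coding RNAs were listed too, 28 of them measured. By the 2-fold rule 3 were higher and 0 lower in P1048R, 3 higher and 2 lower in T1202K, and 1 higher and 0 lower in C1233W. Of all genes 4.48%, 2.95% and 4.19% were higher in these comparisons, and 3.02%, 2.21% and 1.21% were lower. The median ratios were −0.06, −0.10 and 0.06. EPB41L4A-AS1, a snoRNA host gene, stood at 11.7 CPM in WT, 39.0 in P1048R, 36.0 in T1202K and 28.5 in C1233W, the opposite of MALAT1 in that WT was lowest. The host genes SNHG12 (15.7, 43.1, 35.1 and 23.8 CPM in the same order) and SNHG15 (42.0, 103, 95.4 and 63.9 CPM) also had WT lowest and P1048R highest. SNHG4, a snoRNA host gene outside the list, had WT highest, at 49.1, 24.5, 30.9 and 25.8 CPM. KCNQ1OT1, a nuclear RNA that silences an imprinted cluster, was lower in T1202K by −1.05 (−1.35 to −0.76). The imprinted H19 was lower there by −1.43 (−3.17 to −0.03) but had only 14 reads in WT and 6 in T1202K. The abundant RNA NORAD, which binds Pumilio proteins, had levels of 217, 182, 163 and 223 CPM. This was the order of libraries of NEAT1 over a narrower range, with WT and C1233W close together (log2 ratio 0.04). On total-count scaling both lower calls in T1202K were lost: KCNQ1OT1 stood at −0.87 and the interval of H19 held 0 (−2.99 to 0.15). The list then had 3 genes higher and 0 lower there.

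The wider list of paraspeckle proteins, 30 measured, had median ratios of −0.26, −0.16 and −0.25 in P1048R, T1202K and C1233W. On total-count scaling these became −0.03, 0.02 and −0.12. None of the list passed the 2-fold rule (of all genes 7.5%, 5.15% and 5.4% did, in either direction). At 1.5-fold 4 were lower and 1 higher in P1048R, 2 lower and 1 higher in T1202K, and 4 lower in C1233W. Of all genes 10.7% were higher and 8.99% lower by 1.5-fold in P1048R, 7.96% and 5.29% in T1202K, and 4.94% were lower in C1233W. HNRNPA1, an abundant splicing regulator whose processed copies make its counts uncertain, was lowest in P1048R at 902 CPM against 1603 in WT (log2 −0.83). RBM12 had the lowest ratio of the list in C1233W, −0.94. AKAP8L, a nuclear anchoring protein, was highest in P1048R, at 0.65.

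Proteins of nuclear speckles, where MALAT1 collects, had medians of −0.17, −0.14 and −0.30 over 29 measured genes, with none past 2-fold. Of all genes 7.5%, 5.15% and 5.4% were past 2-fold in either direction. On total-count scaling the medians of the speckle genes were 0.06, 0.03 and −0.17. PNN, a speckle protein of splicing, had the lowest ratio in T1202K: 977 CPM in WT, 616 in P1048R, 544 in T1202K and 706 in C1233W. Its order of libraries was that of MALAT1. SON and SRRM2, the scaffold proteins of speckles, stood nearer to WT, at −0.08 and −0.10 in P1048R, −0.14 and −0.13 in T1202K, and −0.38 and −0.31 in C1233W.

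The genes that make or guard the RNA ends were also listed. Of 13 measured genes of 3′ end processing and the triple helix, none passed 2-fold in P1048R or T1202K. In C1233W 1 did: POP1, a protein subunit of RNase P, at 13.6 CPM against 28.5 in WT (−1.06, −1.37 to −0.76), a call that was lost on total-count scaling. Of all genes 1.21% were lower by that rule in C1233W, and 7.5% in P1048R and 5.15% in T1202K passed it in either direction. ELAC2, which trims the 3′ side of tRNAs, was at −0.34, −0.07 and −0.68. METTL16, which binds the MALAT1 triple helix, was at −0.07, −0.05 and −0.31. The medians of the 13 genes were −0.13 in P1048R, 0.01 in T1202K and −0.31 in C1233W. On total-count scaling they were 0.09, 0.18 and −0.18. Any link of these genes to the MALAT1 or NEAT1 levels was not tested.

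Among 24 genes of the nuclear RNA exosome and its adaptors none passed 2-fold, and the medians were −0.03, −0.04 and −0.20. On total-count scaling the medians were 0.20, 0.14 and −0.07. Of all genes 7.5%, 5.15% and 5.4% passed 2-fold in either direction with TMM scaling. No result about the short lists here is drawn from their lack of calls. ZFC3H1, an adaptor that sends nuclear polyadenylated RNA to the exosome, had the lowest ratios of this list in P1048R and T1202K, with 145 CPM in WT, 85.0 in P1048R, 81.2 in T1202K and 98.5 in C1233W. Its order of libraries was again that of MALAT1, but P1048R and T1202K lay close together. Of 19 reported regulators of NEAT1 or MALAT1, none passed 2-fold (medians −0.16, −0.08 and −0.12). On total-count scaling the medians of these regulators were 0.06, 0.10 and 0.01. EPAS1 (HIF2A), which drives NEAT1 in hypoxia, lay at −0.79, −0.41 and −0.21. For the mitochondrially encoded mRNAs, 5, 4 and 1 of 13 were lower by the 2-fold rule, and 3, 3 and 0 on total-count scaling. Of all genes 3.02%, 2.21% and 1.21% were lower with TMM scaling.

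The other genes of the chromosome 11 neighbourhood had medians near 0 with TMM scaling, and higher ones on total-count scaling. Within 250 kb of MALAT1 or NEAT1 lay 42 other genes, of which 20 were measured and 13 had no read in any library. Their median ratios were −0.02 in P1048R, 0.13 in T1202K and −0.04 in C1233W. On total-count scaling they were 0.20, 0.31 and 0.09, where the medians of all genes were 0.18, 0.17 and 0.12. With TMM scaling the interval lay above 0 for 6 and below 0 for 6 in P1048R, for 7 and 3 in T1202K, and for 3 and 3 in C1233W. With total counts these numbers were 9 and 2, 12 and 3, and 6 and 1. By the 2-fold rule 1 was higher (4.48% of all genes) and 2 lower (3.02%) in P1048R. In T1202K 1 was higher (2.95%) and 2 lower (2.21%), and in C1233W 1 was higher (4.19%). FRMD8, upstream of NEAT1, lay at −0.30, 0.14 and −0.27, within 1.5-fold of WT in every mutant.

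The largest neighbour differences at 5 CPM or more were those of EHBP1L1, KAT5, RELA and SSSCA1 in P1048R and T1202K. EHBP1L1 was lower in P1048R by −1.22 (−1.69 to −0.77) and lay at −0.63 in T1202K (−1.04 to −0.22). KAT5, a histone acetyltransferase, lay at 0.93 in P1048R (0.61 to 1.27) and 0.84 in T1202K (0.52 to 1.18). RELA, an NF-kB subunit, lay at 0.58 and 0.56, and SSSCA1 at 0.52 and 0.66. In C1233W MAP3K11 (−0.45), KAT5 (0.32), FRMD8 (−0.27) and RNASEH2C (−0.25) had the largest ratios. KAT5, RELA and SSSCA1 thus lay above WT in P1048R and T1202K, and EHBP1L1 below. On total-count scaling EHBP1L1 no longer passed the 2-fold rule in P1048R, while the higher calls increased. The neighbours then had 2 genes higher and 1 lower in P1048R, and 2 higher and 2 lower in T1202K.

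The remaining calls were on genes with few reads. TIGD3 was higher in all 3 mutants, with 12 reads in WT, 44 in P1048R, 35 in T1202K and 31 in C1233W. The antisense gene AP003068.2 was lower in T1202K, at −1.39, with counts that depend on an unknown strand setting. AP000769.1, a pseudogene between NEAT1 and MALAT1 at chr11:65455258-65466720 on the same strand, had 27 reads in WT, 12 in P1048R, 13 in T1202K and 34 in C1233W. Its ratios were −1.49 (−2.64 to −0.49), −1.30 (−2.41 to −0.33) and 0.18 (−0.58 to 0.97). It was lower in P1048R and T1202K and not in C1233W, as NEAT1 was, at a level of 3.29 CPM or less.

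**Figure D5:**
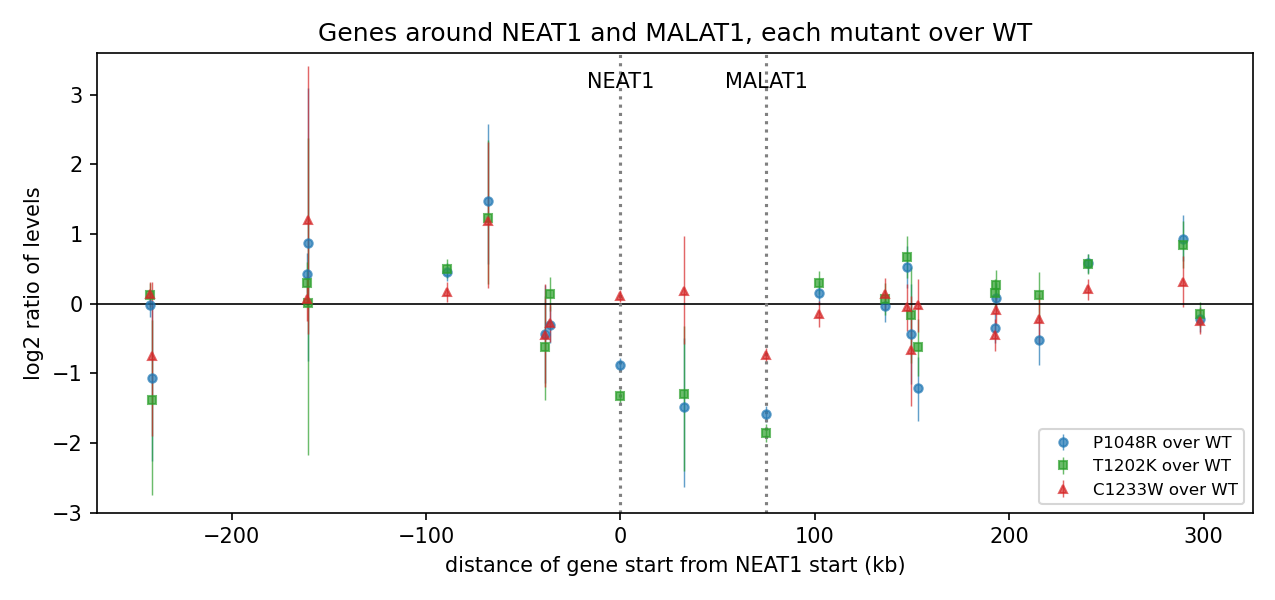
Log2 ratio to WT of NEAT1, MALAT1 and the 20 measured genes within 250 kb, by distance of the gene start from the NEAT1 start (kb), with 95% counting intervals; dotted lines mark NEAT1 and MALAT1. The neighbours lie on both sides of 0, with TMM-scaled medians of −0.02, 0.13 and −0.04 in P1048R, T1202K and C1233W. The wide intervals belong to genes with few reads such as TIGD3.

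Likeness of pattern was measured as the Euclidean distance between log2(CPM + 1) levels over the 4 libraries, each gene centred on its own mean, among the 8939 genes that reached 20 CPM in a library. The gene nearest to MALAT1 was YJEFN3 (distance 0.249), at 23.9 CPM in WT, 9.63 in P1048R, 7.15 in T1202K and 15.7 in C1233W. It was followed by the lincRNA AC245060.5 (0.446), the mitochondrial mRNAs MT-ND6 (0.501) and MT-ATP8 (0.543), and RAB13 (0.562), a small GTPase gene. NEAT1 took place 11 in this order. Nearest to NEAT1 was the lincRNA AC005909.1 (0.271), at 118 CPM in WT, 82.1 in P1048R, 57.8 in T1202K and 148 in C1233W. GABPB1-AS1 (0.470), YJEFN3 (0.491), AC083843.2 (0.515) and SEMA3D (0.545) came next, and MALAT1 took place 15. Of these neighbours of NEAT1, 3 are non-coding. The share of non-coding genes among the 8939 was not counted, so nothing is drawn from this number.

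RefSeq start sites gave promoter windows, 250 bases before to 50 after the start on GRCh38.p14, for 5 of the 7 genes. MALAT1 had a pair of them, and NEAT1 and SFPQ are not described here. The first, at chr11:65497488-65497787 on the plus strand, is shown because the annotated gene starts within it and because it holds several GC boxes. These are GGGCGG on either strand, which capitals mark.
MALAT1 promoter: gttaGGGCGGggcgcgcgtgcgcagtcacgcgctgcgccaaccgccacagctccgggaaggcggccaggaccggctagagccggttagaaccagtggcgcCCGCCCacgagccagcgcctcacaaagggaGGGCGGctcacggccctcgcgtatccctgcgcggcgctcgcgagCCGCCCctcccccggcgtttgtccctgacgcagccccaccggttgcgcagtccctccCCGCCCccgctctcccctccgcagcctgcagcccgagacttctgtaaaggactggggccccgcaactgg
The window held 5 GC boxes, and 45.0% of 35116 promoter windows of this length held at least 1. The share of windows with as many as 5 was not counted. The other MALAT1 window, at chr11:65498795-65499094, held no GC box and 1 TATAAA, which 11.5% of windows held. RBM14 and NONO had 3 CCAAT boxes each, where 34.6% of windows held at least 1. The share with as many as 3 was not counted. TARDBP had 1 GC box. The other motifs searched on both strands were ACGTG (in 21.4% of windows; 1 match, in TARDBP), TGACG (24.6%; 1 match, in the first MALAT1 window), TGANTCA (7.71%; 0 matches) and GAANNTTC (6.77%; 0 matches). These matches describe letters in the window and nothing more. SP1, a factor known to bind GC boxes, lay above WT in each mutant, at 0.64, 0.50 and 0.51. Any link of SP1 to the MALAT1 level was not tested.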

How the data were processed

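RNA sequencing libraries from 4 HEK293T cultures were compared, 1 per construct. The authors deposited raw read counts for each gene as whole numbers. The submitters' processing notes name Trim Galore, HISAT2, featureCounts and hg38, with no version. The kit was stranded per the labels' protocols, but the sources used here give neither the strand setting, the annotation nor the handling of multiply aligned reads, so overlapping and antisense genes are uncertain.

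Library sizes were scaled by TMM over all rows in edgeR 4.0.16 (R 4.3.3), and genes that reached 1 CPM in some library were compared. Log2 ratios used 0.5 added to each count. Their 95% intervals came from Clopper-Pearson shares of reads in 1 of the 2 libraries, and those of levels were exact Poisson intervals. All cover counting error only: PCR copies of a molecule count as separate reads. A floor of 3 reads was 0.251 to 0.321 CPM. The ratio code was tested on simulated data. All 58735 identifiers matched GENCODE release 29 (GRCh38), from which positions, lengths and GC content were taken.

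The members and the gene lists were chosen with earlier results of these data known. Genes were named by rule: the 7 members, list members past 2-fold in any mutant (the 4 with the largest ratios where more than 4 passed), the 4 largest neighbours at 5 CPM or more, and the 5 genes nearest in pattern. Other list members, among them KCNQ1OT1 and NORAD, and AP000769.1 and SNHG4 were named for their function, rank or place after their values were seen. MATR3 and RMRP, with 2 identifiers each, were left out of list counts. Some genes are not reported here. Of 14 small structural RNAs in the table, 1 (RN7SL2) was measured. Alternatives were total counts, DESeq2 1.42.0 size factors, TMM without PBRM1, without mitochondrial genes or over filtered genes, no filter, a 5 CPM filter, thinned counts, GC and length trend removal, and a prior count of 2.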

Additional observations from a re-analysis of the deposited data

How the results depend on the processing

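Each of 42 ratios (7 genes, 6 pairs of libraries) was recomputed under 10 alternatives, of which TMM over filtered genes was chosen after seeing the data. Of 420 values 382 stayed within the counting interval and 38 moved further. The 382 include the values with no filter, which could not move because TMM was run over all rows either way. The sign changed in 9 of the 420, all of PSPC1 or RBM14 and none past 2-fold. The number of the 7 genes past 2-fold was 1, 2 and 0 in P1048R, T1202K and C1233W under every alternative. Total-count scaling, which raises the all-gene medians to 0.18, 0.17 and 0.12, put MALAT1 at −1.36, −1.68 and −0.60 and NEAT1 at −0.66, −1.15 and 0.25. With the GC and length trend removed, NEAT1 was at −0.78 in P1048R and −1.15 in T1202K. NEAT1 in C1233W over P1048R passed 2-fold in 1 of 11 settings, the 5 CPM filter (1.02).

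Over all genes, 728 were higher and 491 lower in P1048R, 479 and 359 in T1202K, and 681 and 197 in C1233W. On total counts these splits were 1250 and 236, 799 and 227, and 942 and 129. With the 5 CPM filter, which tests fewer genes, they were 469 and 151, 282 and 75, and 347 and 39. POP1 in C1233W was not called on total counts. No paired analysis was possible because each construct has 1 library. Leaving out a library was not possible for the same reason. Wide counting intervals limit H19, TIGD3, AP003068.2 and AP000769.1, which had few reads.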
